A study of Arabidopsis thaliana with 11 samples.

Results

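The arrays whose titles carried the code GH were compared with those that carried the code GC, in flowers and in the upper stem of Arabidopsis thaliana Columbia-0 plants. All 8 of the 11 arrays of the series that came from these organs were used, 4 of each code, with 2 flower and 2 stem arrays per code. The other 3 arrays, from rosette leaves, took no part in this comparison. The 15186 probe sets with a signal above 28.1 on at least 3 of the 8 arrays were tested, of 22810 on the array. A probe set is a group of short oligonucleotides that measures a transcript, and its signal is a linear intensity.

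All plants were of the same unmodified stock and received 16 h of light per day at 125 umol per square metre and second, at 25 °C by day and 20 °C by night. Flowers with unopened buds, and the uppermost 2 inches of stem, stripped of siliques and their stalks, were taken 29 days after germination. The array descriptions gave the same controlled growth space for GH and GC in both organs, so the labels do not settle what the codes stand for. In leaves, taken at day 15, the description named a greenhouse for the 2 GH arrays and a controlled system for the 1 GC array. The labels also do not say whether replicate arrays came from separate plants. The p-values therefore measure the spread between these arrays, which may be technical.

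Plant cells answer high temperature and other threats to protein folding by making heat shock proteins. Small heat shock proteins hold unfolded proteins, HSP70 and HSP90 refold or mature them with the help of co-chaperones, and heat shock factors switch on their genes. In Arabidopsis, ROF2 (AT5G48570) is a heat-induced peptidyl-prolyl isomerase of the FKBP family that binds HSP90 and takes part in acquired thermotolerance.

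Marker genes mostly bore out the organ labels, but not all did. ATA27, a beta-glucosidase gene of the tapetum, read 937.5 to 1082 in flower but 1.40 to 17.0 in stem. IRX15, needed for xylan in secondary walls, had 129 to 340.3 in stem and 1.72 to 3.46 in flower. ACT11, an actin gene of the same anther and pollen list as ATA27, went the other way. It read 574.8 to 885.4 in stem and 212.6 to 353.8 in flower. Across all probe sets tested, log2 signals correlated with r of 0.892 to 0.941 between arrays of the same organ and code. Arrays of the same organ and different code correlated almost as closely (0.881 to 0.935), and arrays of different organs at 0.647 to 0.718. The ratio of 3' to 5' signal in control genes, which rises when RNA is degraded or copied incompletely, moved with the code. Its mean log2 over actin, ubiquitin and GAPDH was 1.02 ± 0.80 on the GH arrays and 0.28 ± 0.29 on the GC arrays (SD, n = 4 each). This mean lay higher on GH than on GC in both organs, with p = 0.0556 in a two-sided exact permutation test within organs. That is the smallest p that the 36 arrangements allow. The ratios of actin and GAPDH did not overlap between the codes in either organ. That of ubiquitin overlapped in flower, at 1.74 and 1.48 on GC and 1.65 and 1.79 on GH (exact permutation p = 0.111 over both organs). Stem GH 1 stood apart at 2.13, with a 3' over 5' ratio of 19.6 for actin, while the other 7 arrays lay between 0.01 and 0.90. The part of RNA quality in the results below was not tested beyond 2 fits that hold a 3' over 5' ratio as covariate (from the newer and from the older control probe sets) and a fit that leaves out stem GH 1. For each probe set called over both organs, these 3 values are given beside it. The 25S ribosomal RNA control also read lower in GH, at 8.51 ± 2.31 against 11.9 ± 0.99 (SD, n = 4 each). The codes again did not overlap in either organ (exact permutation p = 0.0556). Its highest signal, 12.97 on flower GC 1, lay below the limit of 28.1. This control was thus dim on every array, and its difference is given by value only.

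**Figure D1:**
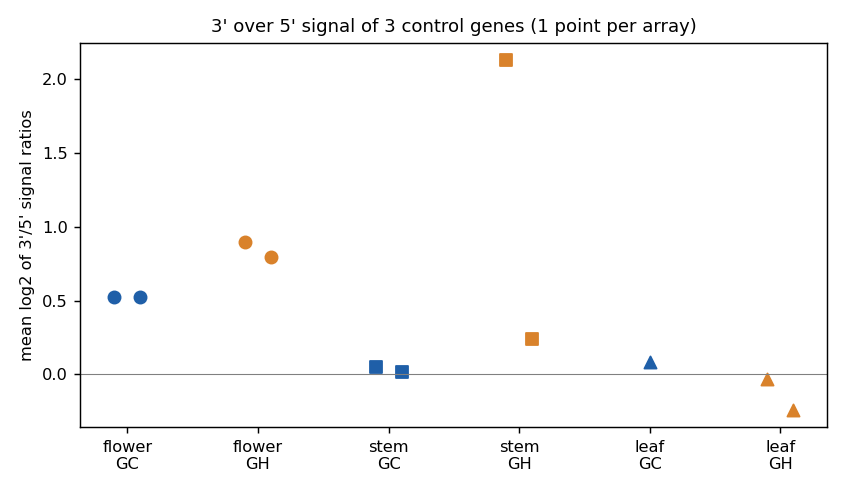
Mean log2 of the 3' over 5' signal ratios of actin, ubiquitin and GAPDH control probe sets (y axis), with 1 point per array and blue for GC and orange for GH. Within flower and within stem both GH arrays lie above both GC arrays, and stem GH 1 at 2.13 lies far above all others. In leaf both GH arrays (-0.03 and -0.24) lie below the single GC array (0.09).

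Few genes separated the codes, and those that did were lower in GH. With limma, organ as covariate and Benjamini-Hochberg adjustment over all 15186 probe sets, 8 probe sets (0.0527%) fell in GH at an adjusted p under 0.05 and 0 rose. Of these, 4 named a single gene. They were ROF2, the small heat shock protein gene AT1G54050, AT1G30070, whose product carries the SGS domain first known from the co-chaperone SGT1, and AT4G30490, which encodes an ATPase of the AFG1 family. The tilt to lower values was found among the lowest p-values and not over the whole array. Of the 25 probe sets with the lowest p, 22 were lower in GH, and of the first 100, 68 were. At an unadjusted p under 0.05 there were 1402 probe sets (9.23%), of which 635 were lower (4.18%) and 767 higher (5.05%). The median log2 difference over all probe sets was 0.02. The number of calls rested on all 8 arrays together. Leaving out any 1 of them gave 2 to 7 calls, of which 2 to 5 were among the 8.

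ROF2 had the lowest p-value of all probe sets. Its signal in flower was 963 and 705 on GC and 98.8 and 48.9 on GH. In stem it was 1117 and 661 on GC and 110.3 and 114 on GH. The lowest GC signal thus lay far above the highest GH signal, and GC levels were alike in flower and stem. The log2 difference GH minus GC was -3.25 ± 0.26 (SE), a 9.53-fold lower signal (limma adjusted p = 0.00258). In whole organs, fewer cells that hold a transcript and less transcript per cell cannot be told apart. ROF2 remained called in all 20 alternative fits, among them the 2 with the 3' over 5' ratio as covariate (-3.35 and -3.41, adjusted p = 0.0247 and 0.0313) and the one without stem GH 1 (-3.31, adjusted p = 0.0119).

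AT1G54050 encodes a class III small heat shock protein. Its flower signals were 1854 and 495.5 on GC and 46.1 and 33.9 on GH. Its stem signals were 182 and 136 on GC and 30.9 and 15.0 on GH. The codes did not overlap in either organ, although the flower GC arrays themselves lay far apart. The signal was 13.3-fold lower in GH (log2 -3.73 ± 0.47, limma adjusted p = 0.0405). The call was kept in 11 of 20 alternative fits, with the adjusted p between 0.0120 and 0.238. It was kept with the newer 3' over 5' ratio as covariate (adjusted p = 0.0350) and without stem GH 1 (0.0179), and lost with the older ratio (0.0683).

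AT1G30070 had signals of 480.1 and 228 on flower GC against 82.7 and 68.4 on flower GH. In stem the GC arrays gave 126 and 79.7, and the GH arrays 21.0 and 23.0. Both stem GH arrays lay below the limit of 28.1, which makes the stem difference at least 3.56-fold. Over both organs the log2 difference was -2.16 ± 0.25 (limma adjusted p = 0.0256). It was called in 10 of 20 alternatives (adjusted p = 0.0118 to 0.188) and lost with either 3' over 5' ratio as covariate (adjusted p = 0.151 and 0.188) and without stem GH 1 (0.0571), where the log2 difference was -2.08 to -2.13.

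AT4G30490 showed the smallest of the 4 named changes. Its flower signals were 162.5 and 181 on GC and 82.9 and 83.6 on GH, and its stem signals 447 and 346 on GC and 166.5 and 196 on GH. In each organ GH was about as far below GC, without overlap. The gene fell by 1.08 on the log2 scale (SE 0.15, limma adjusted p = 0.0496). This call lay at the threshold and was kept in 8 of 20 alternatives (adjusted p = 0.0176 to 0.264). It was lost with either 3' over 5' ratio as covariate (adjusted p = 0.191 and 0.257) and without stem GH 1 (0.0839).

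**Figure D2:**
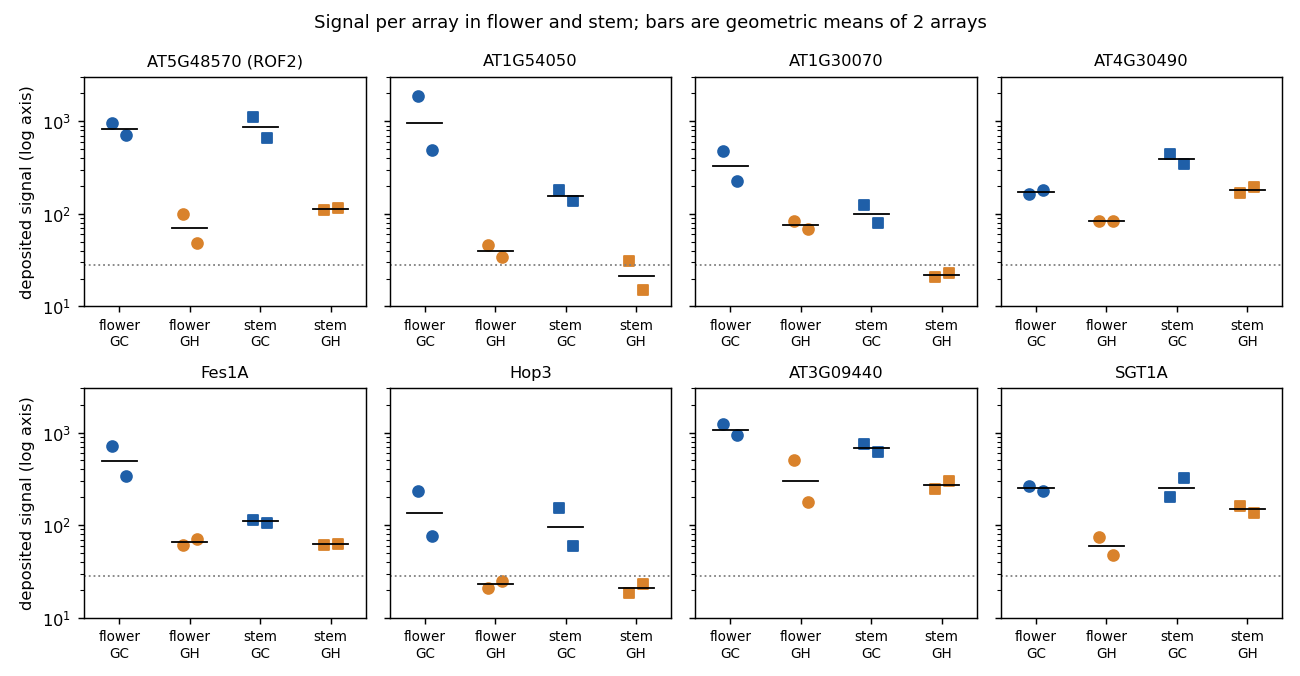
Deposited signal per array (log axis) for the 4 named genes called over both organs and for 4 further heat shock proteins or co-chaperones, with blue for GC, orange for GH, circles for flower and squares for stem. Bars are geometric means of 2 arrays and the dotted line is the limit of 28.1. In all 8 panels both GH arrays lie below both GC arrays within each organ.

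The other 4 called probe sets had no single gene in the annotation used here and are given by their array identifiers. The widest difference among the 8 called belonged to 260248_at. It read 957 and 531 on flower GC and 16.7 and 2.74 on flower GH, with 277 and 225 on stem GC and 6.67 and 3.31 on stem GH. All 4 GH arrays lay below the limit, so the signal was at least 15.0-fold lower (limma adjusted p = 0.00258), and like ROF2 it was called in all 20 alternatives (adjusted p = 0.0247 and 0.0177 with the ratios as covariate and 0.0119 without stem GH 1). Probe set 256245_at differed by -4.24 ± 0.56 (log2, limma adjusted p = 0.0447), and 248332_at by -3.33 ± 0.37 (adjusted p = 0.0212). Probe set 257822_at was lower by less, with a log2 difference of -1.24 ± 0.16 (adjusted p = 0.0447). None of the 3 overlapped between the codes in either organ. Of 20 alternatives, 256245_at was called in 13 and 248332_at in 15, and both calls held with either ratio as covariate (adjusted p = 0.0247 and 0.0313 for each) and without stem GH 1 (0.0179 for each). The call of 257822_at held in 8 and was lost in these 3 fits (adjusted p = 0.179, 0.254 and 0.0665).

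The heat shock families were then described member by member. A list of 102 loci for small heat shock proteins, HSP70, HSP90, HSP100, chaperonins, heat shock factors and co-chaperones was drawn up after the result above was known. The array annotation named 31 of them, and 25 passed the filter on low signals. Of these 25, 2 fell (ROF2 and AT1G54050) and 0 rose. At an unadjusted p under 0.05, 12 were lower and 1 higher, beside 4.18% and 5.05% of all probe sets. In 13 of the 25, both GH arrays lay below both GC arrays in flower and again in stem, an arrangement found in 4.32% of all probe sets. The opposite arrangement was found in 0 of the 25 and in 5.92% of all. Hop3, AT5G51440 and AT2G29500, counted in the 12 and the 13, passed the filter through GC arrays alone. Their place in these counts is therefore not independent of their high GC signals. The median log2 difference of the 25 was -0.41, against 0.02 for all probe sets. With the 3' over 5' ratio as covariate that median was -0.40, with the older control probe sets as covariate -0.48, and without stem GH 1 -0.38. A list of 29 heat and unfolded protein genes was drawn up before that, though also with earlier results of these data known. The annotation named 6 of them, and 4 passed the filter: ROF2, Hop3, AT5G51440 and ATHSP22.0. All 4 were lower in GH over both organs, 3 were lower in stem, and 1 was called. They are also among the 25, so they add no separate support, and Hop3 and AT5G51440 passed the filter through GC arrays alone.

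Among small heat shock proteins, 6 of the 11 named genes passed the filter. After AT1G54050, the lowest p-value belonged to AT2G19310. Its flower signals were 409 and 157 on GC and 81.2 and 69.2 on GH, and its stem signals 113 and 104 on GC and 74.4 and 61.2 on GH. The codes stood apart in both organs, but the difference did not pass (log2 -1.22 ± 0.32, limma adjusted p = 0.366). AT2G29500, a class I small heat shock protein gene, read 123 and 29.7 on flower GC, 32.4 and 24.5 on stem GC, and 0.82 to 13.6 on the GH arrays. Its GH signals were all below the limit, and its difference was at least 1.47-fold. AT5G51440, which encodes a mitochondrial small heat shock protein, was at least 1.59-fold lower, again with every GH array below the limit (adjusted p = 0.415). ATHSP22.0, whose product enters the endoplasmic reticulum, read 82.8 and 39.9 on flower GC and 29.9 and 12.9 on flower GH, while in stem both GH arrays lay slightly above both GC arrays (log2 0.17), and it did not pass (adjusted p = 0.637). The exception in the family was AT4G21870, named here after its values were seen. It read 50.8 and 115 on flower GC, 97.8 and 924 on flower GH, 358 and 79.2 on stem GC, and 644 and 708 on stem GH. Its codes overlapped in flower, and its log2 difference of 1.99 ± 0.66 did not pass (adjusted p = 0.449).

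The 4 HSP70 genes that passed the filter divided into pairs. AT3G09440, a cytosolic HSP70, had flower signals of 1243 and 939 on GC and 505 and 180 on GH, and stem signals of 755.5 and 612 on GC and 247.5 and 299.7 on GH. Hsp70-2 read 362 and 355 on flower GC, 258 and 155 on flower GH, 137 and 128 on stem GC, and 68.5 and 66.0 on stem GH. Both genes stood apart in both organs, at -1.58 ± 0.29 and -0.91 ± 0.18 on the log2 scale, without passing (limma adjusted p = 0.206 and 0.247). The other members, AT1G11660 and AT4G16660, lay slightly above 0 (0.24 ± 0.15 and 0.28 ± 0.19). All 3 chaperonin 60 genes of the plastid also lay near 0, from -0.23 for Cpn60beta2 to 0.29 for Cpn60beta4. No heat shock factor was named in the annotation, and of HSP90 and HSP100 only CLPB2 was, with signals of 1.09 to 1.76, too dim to test.

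Co-chaperones made up 7 of the 13 genes that stood apart in both organs, ROF2 among them, out of 12 tested. Hop3 encodes a scaffold that links HSP70 to HSP90. It read 233 and 77.2 on flower GC and 155 and 59.2 on stem GC. On the GH arrays it read 21.2 and 24.7 in flower and 18.4 and 23.3 in stem, all below the limit. This is at least 4.03-fold lower, and the log2 difference of -2.38 ± 0.39 had an adjusted p of 0.121 in the limma fit, so it did not pass. Its relatives differed less: Hop2 by -0.24 ± 0.14, and Hop1 by 0.09 ± 0.26 with overlapping codes.

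Fes1A, a nucleotide exchange factor of cytosolic HSP70, differed mostly in flower. Its signals were 718 and 343 on flower GC, 61.8 and 70.7 on flower GH, 115 and 105 on stem GC, and 61.2 and 62.7 on stem GH. It fell within flower (log2 -2.91 ± 0.33, limma adjusted p = 0.0476), and its stem difference of -0.83 ± 0.33 did not pass (adjusted p = 0.498). The difference between the organs, 2.08 ± 0.47, did not pass either (adjusted p = 0.982). Fes1B and Fes1C, its relatives, lay at 0.35 ± 0.20 and 0.13 ± 0.21. SGT1A, a co-chaperone of HSP90 in disease resistance, read 267.5 and 234 on flower GC, 73.7 and 47.4 on flower GH, 202 and 321 on stem GC, and 163 and 137 on stem GH. It stood apart in both organs without passing (-1.43 ± 0.29, adjusted p = 0.270). AT2G20560, named after its values were seen, encodes a J-domain protein, the type of co-chaperone that hands clients to HSP70. It read 449 and 132 on flower GC, 37.5 and 7.33 on flower GH, 83.6 and 63.6 on stem GC, and 17.2 and 26.8 on stem GH. Both stem GH arrays lay below the limit, which makes the stem difference at least 2.59-fold, and the difference over both organs did not pass (adjusted p = 0.308). BOB1, a NudC-domain chaperone needed for development, differed by -0.41 ± 0.17.

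**Figure D3:**
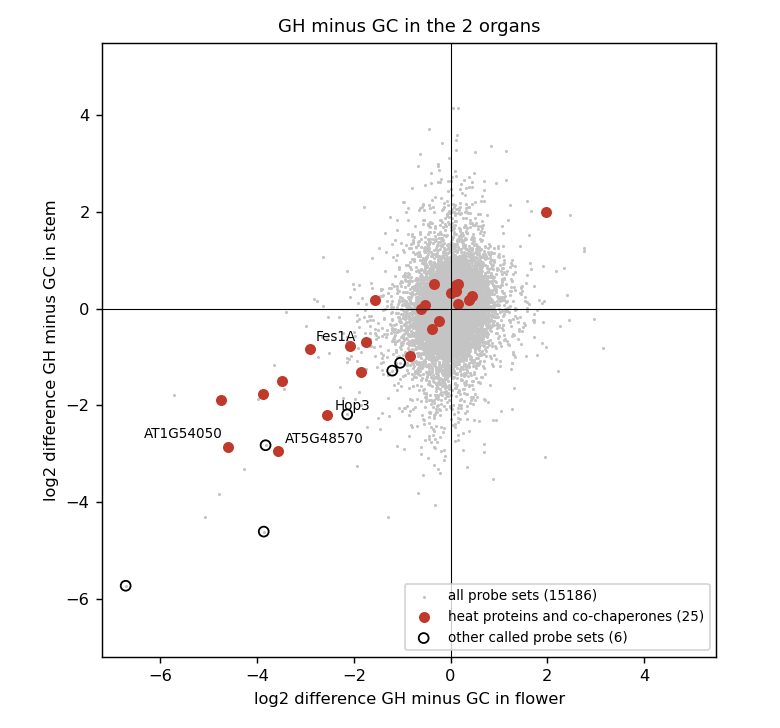
Log2 difference GH minus GC in flower (x axis) and in stem (y axis) for the 15186 probe sets tested (grey), the 25 heat shock proteins and co-chaperones (red) and the other 6 called probe sets (open circles). Most red points and all open circles lie in the lower left quadrant, where both organs are lower in GH.

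The 13 genes that stood apart also shared an order within the GC arrays. Flower GC 1 exceeded flower GC 2 for 13 of the 13, and stem GC 1 exceeded stem GC 2 for 12. The GH arrays had no such order, with GH 1 above GH 2 for 9 genes in flower and 5 in stem. The decrease was larger in flower than in stem for 10 of the 13. These genes were picked for lying apart, and genes measured on an array share its RNA, so the counts are descriptions. The same orders are not given for all probe sets, so they cannot be called particular to these genes.

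No gene passed as higher in GH over both organs. By the lowest unadjusted p, the nearest was FAC1, an AMP deaminase needed for embryo development. Its flower signals were 209 and 201 on GC and 336 and 395 on GH, and its stem signals 117 and 80.6 on GC and 205 and 234 on GH. GH was the higher code in each organ without overlap, about 2.00-fold, and the difference missed the threshold (log2 1.00 ± 0.17, limma adjusted p = 0.131). GSTU20, a tau-class glutathione transferase, read 533 and 687 on flower GC, 1392 and 927.5 on flower GH, 1228 and 885 on stem GC, and 3103 and 1725 on stem GH. It was higher by 1.03 ± 0.22 (adjusted p = 0.308). AT5G58420, of the ribosomal protein S4 family, AT2G14900, of the gibberellin-regulated family, and AT5G05180 were higher by 0.82 ± 0.15, 0.76 ± 0.16 and 0.97 ± 0.18, with adjusted p of 0.215, 0.308 and 0.215. All 5 stood apart in both organs, as did 5.92% of all probe sets. On the lower side, the next named gene was GAMMA-VPE, a cysteine protease of the vacuole. It read 880 and 961 on flower GC, 490 and 469 on flower GH, 818 and 964 on stem GC, and 549 and 406 on stem GH (log2 -0.93 ± 0.14, adjusted p = 0.0758).

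The organs share no arrays, so probe sets from each were looked up in the other. The 3' over 5' ratio was higher in GH in both organs, so the looks are not independent in that respect. Its part in the matching signs was not tested. Of 127 probe sets lower in GH at an unadjusted p under 0.01 in a fit of the flower arrays alone, 103 (81.1%) were also lower in stem. Of 95 lower in the stem arrays alone, 76 (80.0%) were lower in flower. For higher values the shares were 47 of 59 (79.7%) from flower to stem and 55 of 66 (83.3%) from stem to flower. Over all probe sets the sign matched in 57.9%. The log2 differences in flower and stem correlated across the 15186 probe sets with r = 0.21 and rho = 0.20, given without a test because probe sets are not independent replicates.

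Within flower alone, 4 probe sets passed (0.0263%): ROF2 (-3.57 ± 0.37, adjusted p = 0.0462), 260248_at and Fes1A fell, and 260430_at rose. This last probe set read 6.17 and 5.38 on flower GC and 48.4 and 54.7 on flower GH, but 165 and 185.5 on stem GC and 104 and 96.6 on stem GH. Its codes stood apart in opposite directions, and the flower difference of 3.16 ± 0.28 passed (adjusted p = 0.0268), while the difference between the organs did not (adjusted p = 0.0705). At an unadjusted p under 0.05 there were 590 (3.89%). With either form of the 3' over 5' ratio as covariate, 0 probe sets passed. Leaving out flower GC 1, flower GH 2 or any of the 4 stem arrays also left 0.

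Within stem, 4 probe sets passed (0.0263%), mostly near the limit, and 1471 had an unadjusted p under 0.05 (9.69%). AT2G23450, a kinase gene of the wall-associated kinase-like family, read 63.7 and 62.5 on stem GC and 6.77 and 6.72 on stem GH. It was at least 2.24-fold lower (limma adjusted p = 0.0218). In flower its signals overlapped between the codes, from 88.7 to 147. AT1G75300, of the isoflavone reductase-like family, read 1.77 and 2.63 on stem GC and 29.1 and 27.9 on stem GH. It passed as higher (adjusted p = 0.0247), yet the GH arrays barely reached the limit, and the bound is 1.01-fold. Probe set 249895_at passed as higher, at 1.64 and 0.96 on GC and 23.3 and 21.7 on GH. Probe set 248918_at passed as lower, at 15.8 and 14.7 on GC and 0.75 and 0.79 on GH. Every stem array of these 2 lay below the limit, so no fold is given. The stem count depended on single arrays, with 634 calls without stem GH 2, 19 without stem GH 1, 9 without stem GC 1, 2 without flower GH 1 and 0 without flower GC 1 or flower GC 2. Without stem GH 2, the one stem GH array left is the one with the highest 3' over 5' ratio. No probe set passed the test of a difference between the organs in the limma fit. At an unadjusted p under 0.05 there were 562 (3.70%), and without stem GH 2 there were 65 calls.

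The leaf arrays ran the other way for the heat genes. ROF2 read 40.6 on leaf GC and 298 and 199.7 on leaf GH. AT1G54050 read 59.8 on leaf GC and 192 and 159 on leaf GH, and Fes1A 72.7 against 217 and 146. For each of these genes both leaf GH arrays exceeded the single leaf GC array, while both GH arrays lay below both GC arrays in flower and in stem. All 13 heat genes that stood apart in flower and stem were higher on both leaf GH arrays, beside 38.3% of all probe sets (39.6% were lower on both). For Hop3 this rests on signals below the limit, 14.53 on leaf GC and 23.35 and 18.54 on leaf GH. For Hop2 the difference was small, at 128.3 against 145.4 and 140.1. Of the other 12 heat genes tested, 7 were higher on both leaf GH arrays. The median leaf difference over the 25 heat genes was 0.63 on the log2 scale, against -0.01 over all probe sets.

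A test of this contrast between organs was added after the leaf values were seen. It took the GH minus GC difference in leaf less the mean of those in flower and stem, fitted on 11 arrays. With limma, 26 probe sets passed (0.171%), 22 of them toward a higher value in leaf (0.145%), and 1444 had an unadjusted p under 0.05 (9.51%). Of the 25 heat genes, 13 were past that level toward leaf, beside 4.89% of all probe sets, and 3 passed. The 3 were ROF2 (5.84 ± 0.52, adjusted p = 0.00513), AT1G54050 (5.28 ± 0.78, adjusted p = 0.0402) and Fes1A (3.16 ± 0.47, adjusted p = 0.0406). The contrast contains the flower and stem difference by which the genes were found, and only its leaf side is separate from that choice. Within leaf, 36 probe sets passed (0.237%). The leaf difference alone did not pass for ROF2 (2.58 ± 0.45, adjusted p = 0.0701), AT1G54050 (1.55 ± 0.67, 0.496) or Fes1A (1.29 ± 0.40, 0.283). Leaf GC rests on 1 array, assumed to vary like the other groups. Leaf differs from the other organs in age and in its labelled growth space as well as in tissue. The mean log2 3' over 5' ratio ran the other way in leaf too, at 0.09 on GC and -0.03 and -0.24 on GH. With the older control probe sets it did not, at 0.98 on GC and 0.98 and 1.09 on GH. These differences between leaf and the other organs cannot be told apart. The part of RNA quality in the leaf contrast was not tested beyond a fit with the newer ratio as covariate. The codes were taken from the array titles, and an exchanged code on an array would turn the direction of its values, which was not tested. ROF2 kept the call in 15 of 15 alternatives of this test, AT1G54050 in 8 and Fes1A in 4.

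**Figure D4:**
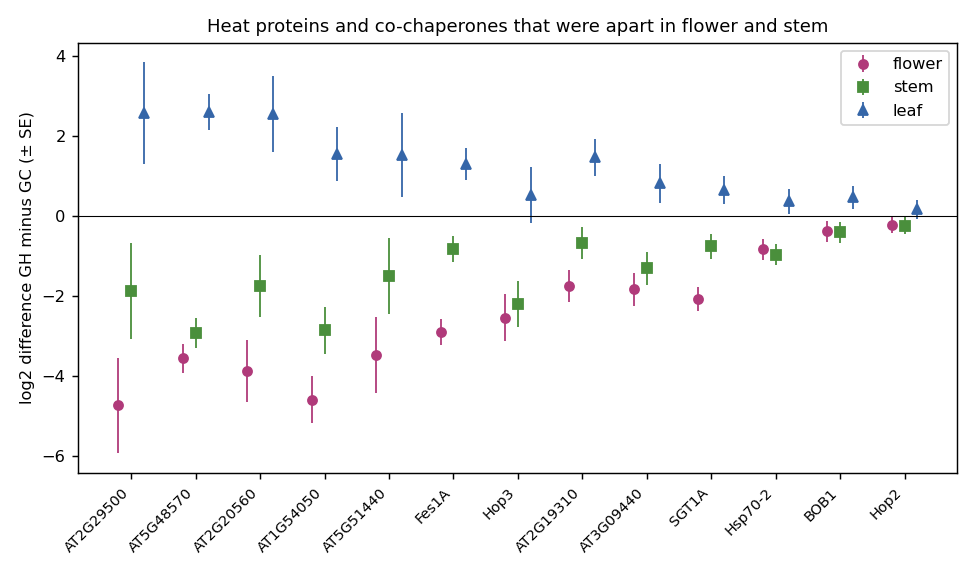
Log2 difference GH minus GC (± SE) in flower, stem and leaf for the 13 heat shock proteins and co-chaperones whose codes stood apart in flower and stem. Flower and stem values lie below 0 by that choice, and all 13 leaf values lie above 0.

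Outside the heat families, no list of genes held a called member in the main comparison, and the values of the members with the lowest p are given as such. Among genes of secondary walls, 3 of 5 members were lower at an unadjusted p under 0.05, beside 4.18% of all probe sets. GUT2, a xylan synthase gene, read 638 and 595.5 on stem GC and 203 and 252 on stem GH, but 53.1 to 61.3 on all flower arrays (stem log2 -1.45 ± 0.21, limma adjusted p = 0.102). IRX15-L, also of xylan synthesis, read 664 and 559 on stem GC against 431 and 355 on stem GH, with -0.85 ± 0.23 over both organs (adjusted p = 0.369). HCT, of lignin synthesis, lay at -0.41 ± 0.14. GUT2 and IRX15-L are known markers of xylem and fibres, while HCT also read 584 to 671 in leaf. The summed signal of the 5 genes was 2818 and 2689 on stem GC and 2148 and 1621 on stem GH. The part of tissue make-up in the heat gene differences was not tested.

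Cell wall enzymes of growth moved by value in both directions. XTH18, a xyloglucan endotransglucosylase, read 4.59 and 23.49 on flower GC, 70.0 and 71.3 on flower GH, 225 and 375 on stem GC, and 801 and 597 on stem GH. It was higher in GH in both organs, at least 2.51-fold in flower (log2 2.01 ± 0.48 over both, limma adjusted p = 0.333). XTH16 was higher by 0.98 ± 0.36. Of 12 expansins, which loosen walls, 3 were lower and 1 higher at an unadjusted p under 0.05, beside 4.18% and 5.05% of all probe sets. EXPA8 differed by -1.19 ± 0.36 and EXPB1 by -1.18 ± 0.38, while EXLA1 differed by 0.85 ± 0.31.

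Photosynthesis genes held no called member. Of the 5 nuclear genes tested, LHCB4.2, a light-harvesting antenna protein of photosystem II, lay at -0.53 ± 0.14 and LHCB4.3 at 0.57 ± 0.25. The 69 plastid-encoded genes had a median of -0.13, with 3 lower and 3 higher at an unadjusted p under 0.05, beside 4.18% and 5.05% of all probe sets. The organs differed by value, with a median of 0.09 in flower, where 28 were lower, and -0.40 in stem, where 51 were lower. Of all 15186 probe sets, 7185 were lower in flower and 7404 in stem. The pooled median was 0.02 without stem GH 1, -0.34 without flower GH 2 and -0.33 without flower GC 2, and 0.09 and 0.28 with the newer and the older 3' over 5' ratio as covariate. Among them psbK, a photosystem II subunit, read 2923 and 2360 on flower GC, 299.8 and 1266 on flower GH, 6376 and 6587 on stem GC, and 1569 and 6239 on stem GH. Its lowest stem value was on stem GH 1, the array with the high 3' over 5' ratio (log2 -1.57 ± 0.50, limma adjusted p = 0.446). Genes encoded in the mitochondrion had a median of 0.11, with 0 of 18 probe sets past an unadjusted p of 0.05, beside 9.23% of all probe sets.

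Stress lists other than heat held no called member, but few of their loci were named and passed the filter. For cold and drought these were 4 of 18, for the clock 3 of 25, and for flavonoids and UV-B 1 of 22. For touch they were 1 of 17, for jasmonate 2 of 22, for salicylic acid 1 of 17, and for copper and iron 1 of 14. The lack of calls therefore says little about these responses. COR15B, a cold-induced chloroplast protein, lay at -0.53 ± 0.20, LTI30, a dehydrin, at -0.54 ± 0.27, and COR47, another dehydrin, at -0.24 ± 0.15, while COR15A lay at 0.27 ± 0.29. Of the clock, GI lay at -0.19 ± 0.16. STZ, a zinc finger gene that responds to touch and stress within minutes, ranged from 41.2 to 215.5 in flower and from 148 to 609 in stem, with overlapping codes in both. DFR, of anthocyanin synthesis, lay at -0.09 ± 0.20. BCAT4, of methionine chain elongation for glucosinolates, was higher by value in GH without overlap, at 0.89 ± 0.27 (limma adjusted p = 0.435). The floral genes ALC and SPT lay at 0.17 ± 0.28 and 0.05 ± 0.19, and the division genes AUR1 and TOPII at 0.10 ± 0.16 and -0.28 ± 0.22. The lists for abscisic acid, sugar starvation and nitrate had no member named on the array.

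**Figure D5:**
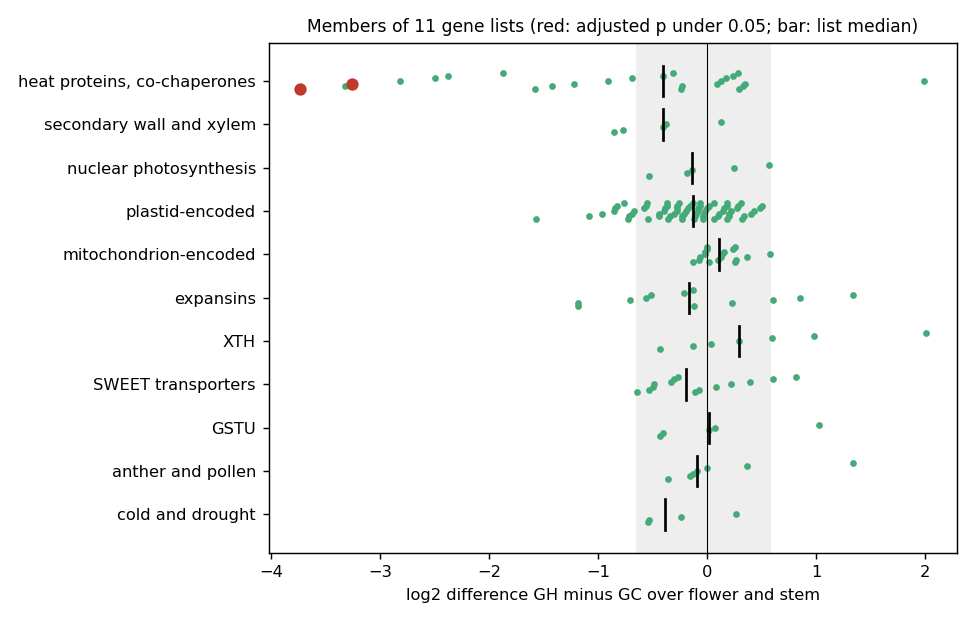
Log2 difference GH minus GC over flower and stem for the members tested of 11 gene lists, with the list median as a black bar and called members in red. The grey band spans the 5th to 95th percentile of all probe sets, -0.65 to 0.58, and the 2 called members, ROF2 and AT1G54050, are both in the heat list.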

How the data were processed

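The values were the deposited signals of Affymetrix ATH1 arrays, linear intensities that the authors computed with MAS5, per the submitters' processing notes. The version and the scaling target were not given in the sources used here; the trimmed mean signal was 100 on every array. Control probe sets (64) were left out of tests. The limit of 28.1 is the 40th percentile of all values of the 11 arrays. Signals were taken as log2 with no pseudocount. The linear models were those of the limma package (3.58.1, under R 4.3.3), moderated by eBayes with a mean-variance trend, with organ as covariate for the main comparison and 1 mean per organ and code for the comparisons within organs and their difference. Calls were made at an adjusted p under 0.05 (Benjamini-Hochberg over 15186 probe sets). Precision is set by the number of arrays. Where every array of a code lay below the limit in an organ, the fold is given as a bound against the limit or the signal measured, whichever was higher. The scripts recovered changes set in simulated data. No rate of recovery is given here, so a lack of calls does not show a lack of change.

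Gene names came from the platform annotation, matched to RefSeq for 13436 of 13513 probe sets of 1 gene. Among probe sets tested, 8283 had 1 gene, 288 several and 6615 none. The comparison, its members and the lists were chosen with earlier results of these data known, and the heat family list and the leaf contrast after the main result. Named genes were the called ones of 1 gene, filled to 5 per direction by lowest p, up to 4 within each organ and direction, and up to 4 per list with the lowest p. Alternatives changed the normalization, filter, pseudocount, floor, trend, weights, arrays, block and RNA quality covariate.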

Additional observations from a re-analysis of the deposited data

Results flagged for a closer look

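Among the 4 stem arrays, stem GH 1 lay far from the others in its 3' over 5' ratios. Its ratio was 19.65 for actin, 1.767 for GAPDH and 2.131 for the mean log2 ratio of the control genes. On stem GH 2 the 25S ribosomal RNA control read 6.386, below the other stem arrays at 11.5 to 12.1. In flower this control read 9.11 and 7.04 on GH and 13.0 and 10.6 on GC. All these signals lay below the limit of 28.1, so the flag for stem GH 2 rests on dim values. Chance puts 1 value this far from the others in about 1 of 20 groups of 4. Several measures were looked at, which makes such a value more likely among them. The mean log2 ratio contains the actin and GAPDH ratios, so the values flagged for stem GH 1 are not independent.

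The GH minus GC difference in leaf, less its mean in flower and stem, passed the limma test for 10 of the genes and probe sets named here. On the log2 scale it was 5.837 for ROF2 (AT5G48570), 5.282 for AT1G54050 and 3.161 for Fes1A. It was 4.392 for IRX15-L, whose leaf GC signal of 2.33 lay below the limit and whose leaf GH signals were 29.2 and 25.1. It was -2.62 for AT5G05180 and -1.669 for LCR69, a defensin-like gene. Among probe sets without a single gene it was 11.07 for 256245_at, 5.544 for 248332_at, 3.695 for 248918_at and 2.531 for 257822_at. The value for 256245_at is set by a leaf GC signal of 1.22, below the limit, against 185 and 104 on leaf GH. That for 248918_at rests on signals below the limit in leaf and stem.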

How the results depend on the processing

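The 8 calls over both organs became 5 with the older control probe sets as RNA quality covariate (added after seeing the data), 13 with all 11 arrays, 14 with array weights, 2 without the eBayes trend, and 2 to 7 with 1 array left out. All calls in these fits were lower in GH, and with 1 array left out 2 to 5 of them were among the 8. The 4 flower calls became 0 with either RNA quality covariate, 1 without the trend, and 0 to 4 with 1 array left out. The 4 stem calls became 0 with the older covariate, 14 with all 11 arrays, 1 with array weights, 21 without the trend, 1 with the floor, 1 with the pseudocount, and 0 to 634 with 1 array left out. The difference between organs had 65 calls without stem GH 2 and 0 without any other array. The median log2 difference over all probe sets, 0.02, became 0.0643 with the older covariate, 0.0541 with the newer, and 0.0124 to 0.0394 with 1 array left out. The share of probe sets with the same sign in both organs was 55.35% to 57.65% with 1 array left out. The 26 calls of the leaf contrast became 15 with the floor and 5 to 178 with 1 array left out: 5 without leaf GH 1, 8 without leaf GH 2, 7 without flower GC 1, 8 without flower GH 2, 6 without stem GC 1, 12 without stem GC 2, 47 without flower GH 1, 59 without stem GH 1 and 178 without stem GH 2. Replicate numbers did not pair the arrays, since deviations of arrays with the same number correlated at 0.01 in flower and 0.03 in stem. With a replicate block there were 12 calls over both organs (6 of them among the 8), 5 within flower (2 of them among the 4) and 0 within stem. The single stem call with the floor, and that with the pseudocount, was not among the 4 of the main fit. No value called over both organs or within an organ took the opposite sign in its alternatives. Of the leaf contrast only the calls named above were followed, and none of those changed sign. With the floor the stem differences of 248918_at and 249895_at were 0, since all their stem signals lie below it. The calls within an organ held in 8 to 14 of 20 alternatives. Signals below the limit of 28.1 set only bounds.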

Other observations

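Among named genes outside the rules above, TIL, a temperature-induced lipocalin of the plasma membrane, had the 16th lowest p over both organs. It was lower in GH by value (log2 -1.12 ± 0.19, limma adjusted p = 0.131) and was picked out after its rank was seen.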
